A study of Xenopus laevis with 3 samples.

Results

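The gonadotropin receptor genes of Xenopus laevis, the African clawed frog, were measured as polyadenylated RNA from whole testis. Members were found by symbol: after removal of a final .L or .S, the symbols fshr and lhcgr kept 3 of 34694 gene rows, fshr.L, fshr.S and lhcgr.S. The species is allotetraploid, and L and S mark the copies of a gene, called homeologs, on its pair of subgenomes. A further row, lhcgr-A, has no such ending. The NCBI gene table of assembly Xenopus_laevis_v10.1 places it next to fshr.L on an L chromosome, as lhcgr.S lies next to fshr.S on the matching S chromosome. It was therefore taken as the L copy of lhcgr, which makes 4 rows in all, and results that rest on it say so. All 3 libraries are of a single group, untreated males of an outcrossed laboratory stock, with mixed cells of the testis. Each library carries its own processing date, so that library, date and animal cannot be told apart, and nothing in the labels states that the animals were separate. Values over the libraries therefore show the spread between these samples, which may be technical.

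Follicle-stimulating hormone (FSH) and luteinizing hormone (LH) are pituitary glycoprotein hormones that share an alpha subunit. Their receptors, encoded by fshr and lhcgr, are G protein-coupled receptors with a large leucine-rich repeat domain outside the cell, and they raise cyclic AMP and so activate protein kinase A. In the mammalian testis the FSH receptor is made by Sertoli cells, which nurse the germ cells, and the LH receptor by Leydig cells, which make testosterone. In frogs, gonadotropin also brings about the release of sperm, and chorionic gonadotropin, a ligand of the LH receptor, is injected to induce mating in Xenopus.

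Both genes were detected in whole testis, and fshr RNA was far more abundant than lhcgr RNA. Library totals lay between 61212304 and 70580016 counts. All 4 receptor rows were detected, meaning more than 3 counts in every library and a CPM, the count relative to 1000000 counts of a library, no lower than 0.5, against 66.7% of all rows. Together the fshr copies held 12338 counts over the 3 libraries, and the lhcgr copies held 1248. Counting error is thus small for fshr and larger for lhcgr.

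The L copy of the LH receptor, lhcgr-A, had 1.58, 2.21 and 3.17 TPM in the replicate 1, 2 and 3 libraries, from 223, 307 and 399 counts. TPM is the count per base of coding length, scaled so that the rows of a library sum to about 1000000. Its mean was 2.32 ± 0.800 TPM (SD, n = 3). The S copy, lhcgr.S, had 0.612, 0.757 and 1.02 TPM, from 86, 105 and 128 counts, with a mean of 0.796 ± 0.207 TPM (SD, n = 3). Replicate 3 was the highest and replicate 1 the lowest library for both copies, and no value of lhcgr.S reached the lowest value of lhcgr-A.

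The FSH receptor copies were close to each other. In the replicate 1, 2 and 3 libraries fshr.L had 16.4, 12.1 and 21.1 TPM, from 2241, 1634 and 2570 counts, with a mean of 16.5 ± 4.48 TPM (SD, n = 3). The S copy, fshr.S, had 12.7, 11.4 and 21.5 TPM, from 1738, 1533 and 2622 counts, with a mean of 15.2 ± 5.51 TPM (SD, n = 3). Replicate 3 was again the highest library for both, and the values of the L and S copies overlapped. By mean TPM the 4 rows ran fshr.L, fshr.S, lhcgr-A, lhcgr.S, and only the first pair did not differ beyond its spread.

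**Figure D1:**
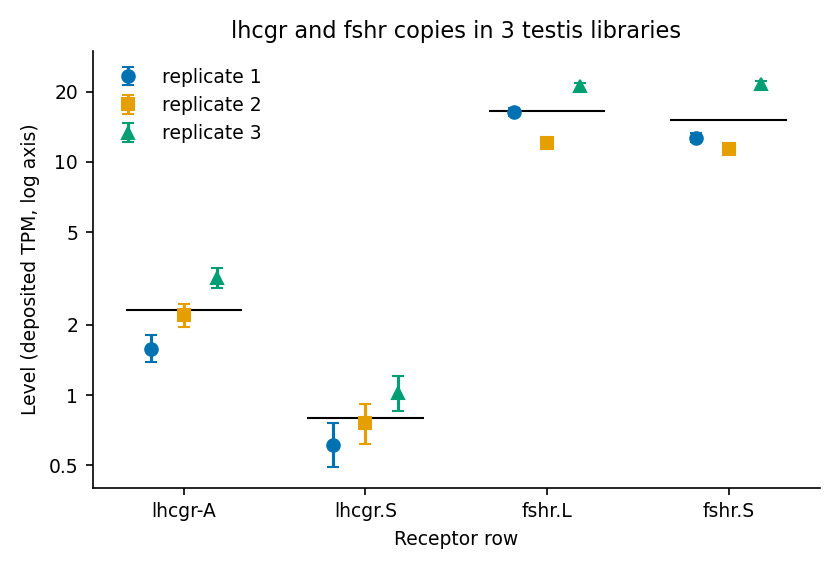
Level in deposited TPM on a log axis of lhcgr-A, lhcgr.S, fshr.L and fshr.S in the replicate 1, 2 and 3 libraries. Points are single libraries with exact 95% Poisson intervals of the counts, which cover counting error only, and horizontal lines are means of 3 libraries. The lhcgr rows lie between 0.612 and 3.17 TPM, and the fshr rows between 11.4 and 21.5 TPM.

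Set against the whole table, the lhcgr copies stood among the low rows and the fshr copies above the middle. Among the 23153 detected rows, whose median was 9.72 TPM, lhcgr-A lay at percentile 19.5 and lhcgr.S at percentile 5.16. The FSH receptor rows lay at percentile 63.0 for fshr.L and 61 for fshr.S.

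Within each library, lhcgr was lower than fshr. With the copies summed, lhcgr had 2.19, 2.96 and 4.19 TPM in the replicate 1, 2 and 3 libraries, against 29.1, 23.5 and 42.6 TPM for fshr. These sums averaged 3.12 ± 1.01 TPM for lhcgr and 31.7 ± 9.82 TPM for fshr (SD, n = 3). The log2 ratio of lhcgr to fshr was -3.35 ± 0.37 (SD, n = 3), so lhcgr was 10.2-fold lower. It was 13.3-fold lower in replicate 1, 7.93-fold in replicate 2 and 10.2-fold in replicate 3. All 3 libraries had a negative ratio. A two-sided exact permutation of signs returned p = 0.25, below which a design of 3 libraries cannot go. Without lhcgr-A, lhcgr.S alone against the summed fshr copies gave -5.30 on the log2 scale.

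Single copies gave the same direction. On the log2 scale lhcgr-A stood at -2.85 ± 0.47 relative to fshr.L and at -2.71 ± 0.32 relative to fshr.S (SD, n = 3). The ratio of lhcgr.S was -4.37 ± 0.37 to fshr.L and -4.23 ± 0.28 to fshr.S (SD, n = 3). All 4 ratios were negative in 3 of 3 libraries. In the family of 8 ratios compared here and below, the exact permutation of signs returned p = 0.25 for 7 ratios (0.286 after Benjamini-Hochberg adjustment over the family) and p = 0.5 for fshr.L over fshr.S (0.5 after adjustment).

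The homeologs of lhcgr differed in level, while those of fshr were not shown to differ. Copies lhcgr-A and lhcgr.S entered a quasi-likelihood fit in edgeR among 6628 pairs of L and S rows, with the library as a block. The log2 ratio of lhcgr-A to lhcgr.S was 1.52 (SE 0.271, 95% interval 0.82 to 2.21, adjusted p = 0.00654, edgeR), or 2.86-fold. Such a call with L higher was made for 34.4% of all 6627 pairs tested by symbol, with S higher for 26.6% and in either direction for 61.1%. With the L and S columns scaled separately, 2064 pairs had L higher and 2005 had S higher. An L copy above its S copy is therefore common in this table, and the lhcgr ratio was wider than that of 68.4% of pairs. By library the log2 ratio of lhcgr-A to lhcgr.S was 1.37, 1.54 and 1.64 in replicates 1, 2 and 3, and lhcgr-A made up 74.1 ± 1.80% of the summed lhcgr TPM (SD, n = 3).

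On the log2 scale fshr.L relative to fshr.S stood at 0.14 (SE 0.153, 95% interval -0.25 to 0.53, adjusted p = 0.452, edgeR). In linear terms this interval runs from 0.842-fold to 1.45-fold, so a difference up to that size is not excluded. Only 8.59% of the tested pairs had a smaller absolute log2 ratio, and the median of the absolute ratios was 0.92. By library it was 0.37 in replicate 1, 0.09 in replicate 2 and -0.03 in replicate 3, and fshr.L made up 52.5 ± 3.50% of the summed fshr TPM (SD, n = 3). Over all pairs the log2 L to S ratio had a median of 0.15, and scaling the L and S columns separately moved it to 0.016. Under that scaling the ratio was 1.38 for lhcgr and 0.0074 for fshr.

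The copy ratio of lhcgr exceeded that of fshr in each library. The difference between both log2 ratios was 1.0, 1.45 and 1.67 in the replicate 1, 2 and 3 libraries, with a mean of 1.37 ± 0.34 (SD, n = 3). Again p = 0.25 was the lower bound of the exact permutation of signs. How reads that fit both copies were assigned is not stated, which leaves ratios of near-identical copies uncertain.

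**Figure D2:**
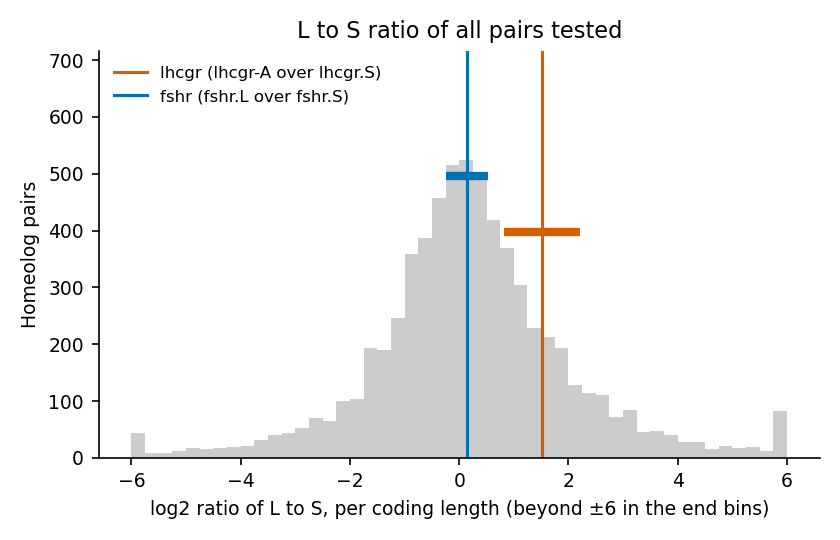
Histogram of the log2 ratio of L to S, per coding length, over the 6628 homeolog pairs fitted, with pairs beyond 6 in either direction placed in the end bins. Vertical lines mark lhcgr (1.52) and fshr (0.14), and thick bars their 95% intervals.

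Across the libraries the receptor copies of each gene moved together. All 4 rows were highest in replicate 3, as were 21.6% of detected rows. In TPM, both lhcgr copies ran from replicate 3 through replicate 2 to replicate 1, an order found in 8.21% of detected rows. Both fshr copies ran from replicate 3 through replicate 1 to replicate 2, an order found in 13.4%. Among 5819 pairs with both copies detected, 31.4% had the same order of libraries in L and S. The order of the lhcgr copies and of fshr.L was the same in CPM under TMM factors, DESeq2 size factors and raw totals, whereas fshr.S placed replicate 2 above replicate 1 under TMM and DESeq2 scaling.

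The span between libraries exceeded the median of all detected rows for each of the 4 receptor rows. Highest over lowest TPM was 2.0 for lhcgr-A, 1.67 for lhcgr.S, 1.74 for fshr.L and 1.89 for fshr.S, against a median of 1.52 and an upper quartile of 1.94 over all detected rows. Low counts widen this span. Over rows whose mean CPM was within 2-fold of each receptor row, the spans lay at percentile 65.0 for lhcgr-A, 33.2 for lhcgr.S, 78.5 for fshr.L and 84.6 for fshr.S. Exact 95% Poisson intervals of lhcgr-A did not overlap between any libraries, running from 1.38 to 1.80 TPM in replicate 1, from 1.97 to 2.47 TPM in replicate 2 and from 2.87 to 3.50 TPM in replicate 3. For lhcgr.S only those of replicate 1, from 0.489 to 0.755 TPM, and replicate 3, from 0.851 to 1.21 TPM, were apart. Without replicate 3 the spans were 1.39 for lhcgr-A, 1.24 for lhcgr.S, 1.35 for fshr.L and 1.12 for fshr.S. Without replicate 2 the span of fshr.L was 1.29.

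Markers of the cells known to carry these receptors in mammals varied between the same libraries. The 9 Leydig cell marker rows, all detected, summed to 618, 864 and 1551 TPM in the replicate 1, 2 and 3 libraries, the library order of the lhcgr copies. In 5 of the 9 rows the order was also that one, against the 8.21% of all detected rows. Among these 5, cyp17a1.L, for the enzyme that leads to androgens, had 358, 517 and 728 TPM, star.L, for the cholesterol carrier of mitochondria, had 47.0, 124 and 249 TPM, and hsd3b1.L, for a steroid dehydrogenase, had 36.4, 80.6 and 206 TPM. By contrast scarb1.L, for a lipoprotein receptor, was highest in replicate 1, with 106, 38.7 and 60.3 TPM. The lhcgr copies spanned less between libraries than star.L (5.29-fold), star.S (9.23-fold) and hsd3b1.L (5.67-fold). They also spanned less than cyp11a1.S (4.31-fold), hsd17b3.L (2.74-fold) and scarb1.L (2.73-fold), but more than scarb1.S (1.42-fold) and nr5a1.L (1.26-fold). The row cyp17a1.L spanned 2.04-fold, near the 2.0-fold of lhcgr-A and above the 1.67-fold of lhcgr.S.

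Sertoli cell markers gave sums of 1171, 871 and 1235 TPM in the replicate 1, 2 and 3 libraries over 21 rows, of which 18 were detected. This is the library order of the fshr copies in TPM, but only 4 of the 18 detected rows shared it, against 13.4% of all detected rows. The sums of the leukocyte markers given below had the same order, and 4 of their 8 detected rows shared it. So did 7 of 17 phosphodiesterase rows, so the order was not particular to Sertoli markers. Among the 4 Sertoli rows, dmrt1.S, for a transcription factor also made in germ cells, had 122, 81.6 and 131 TPM. Its L copy, dmrt1.L, did not share the order and had 280, 187 and 247 TPM, highest in replicate 1. The inhibin subunit row inha.L had 259, 105 and 248 TPM, lowest in replicate 2 like the fshr copies in TPM, but highest in replicate 1. That order, from replicate 1 through replicate 3 to replicate 2, was found in 30.7% of detected rows and in 7 of the 18 detected Sertoli rows. The largest row, clu.L, for the secreted chaperone clusterin, ran in another order, with 287, 332 and 429 TPM.

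Per unit of marker RNA the receptors differed less between some libraries. For each 1000 TPM of Leydig markers, lhcgr-A had 2.56, 2.55 and 2.04 TPM in the replicate 1, 2 and 3 libraries, a 1.25-fold span, against 2.0-fold for lhcgr-A itself. On the same basis lhcgr.S had 0.990, 0.875 and 0.657 TPM, a 1.51-fold span. For each 1000 TPM of Sertoli markers, fshr.L had 14.0, 13.9 and 17.1 TPM, a 1.23-fold span, and fshr.S had 10.9, 13.0 and 17.4 TPM, a 1.60-fold span. Set against the other list, fshr.L per Leydig marker spanned 1.95-fold and lhcgr-A per Sertoli marker 1.90-fold, while fshr.S per Leydig marker spanned 1.57-fold, no more than against Sertoli markers. In bulk RNA of whole testis, fewer cells of a type and less RNA per cell cannot be told apart, and a few abundant rows dominate each sum. Every Leydig marker row is also a row of the LH response list given below. The Leydig sum is therefore no measure of cell content apart from the response to LH.

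The summed smooth muscle markers had the library order of the lhcgr copies as well. Their 14 rows, all detected, summed to 371, 718 and 1781 TPM in the replicate 1, 2 and 3 libraries. Of these rows, 10 of 14 had the library order of the lhcgr copies, against 8.21% of all detected rows. The other 4 had that of the fshr copies in TPM, against 13.4% of all detected rows. For each 1000 TPM of smooth muscle markers, lhcgr-A spanned 2.39-fold, lhcgr.S 2.88-fold, fshr.L 3.73-fold and fshr.S 2.84-fold. All 4 spans were wider than those of the receptor rows themselves. The actin row acta2.S had 20.2, 130 and 283 TPM. Leukocyte markers summed to 83.2, 61.5 and 238 TPM over 9 rows, endothelial markers to 54.5, 63.7 and 47.9 TPM over 11 rows, and germ cell markers to 3611, 4058 and 3532 TPM over 16 rows. Within the leukocyte sums, the row mpo.S alone had 2.14, 1.49 and 131 TPM in the replicate 1, 2 and 3 libraries. The part of any of these cell types in the receptor values was not tested. The receptor of adrenocorticotropic hormone, mc2r.L, which marks the steroid cells of the adrenal gland, had 3.98, 7.85 and 13.99 TPM, also in the lhcgr order. In contrast cyp21a2.1.L, for an adrenal steroid hydroxylase, had 0.834, 2.37 and 1.01 TPM. Both mc2r.L and cyp21a2.1.L were brought in here after their values were seen.

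**Figure D3:**
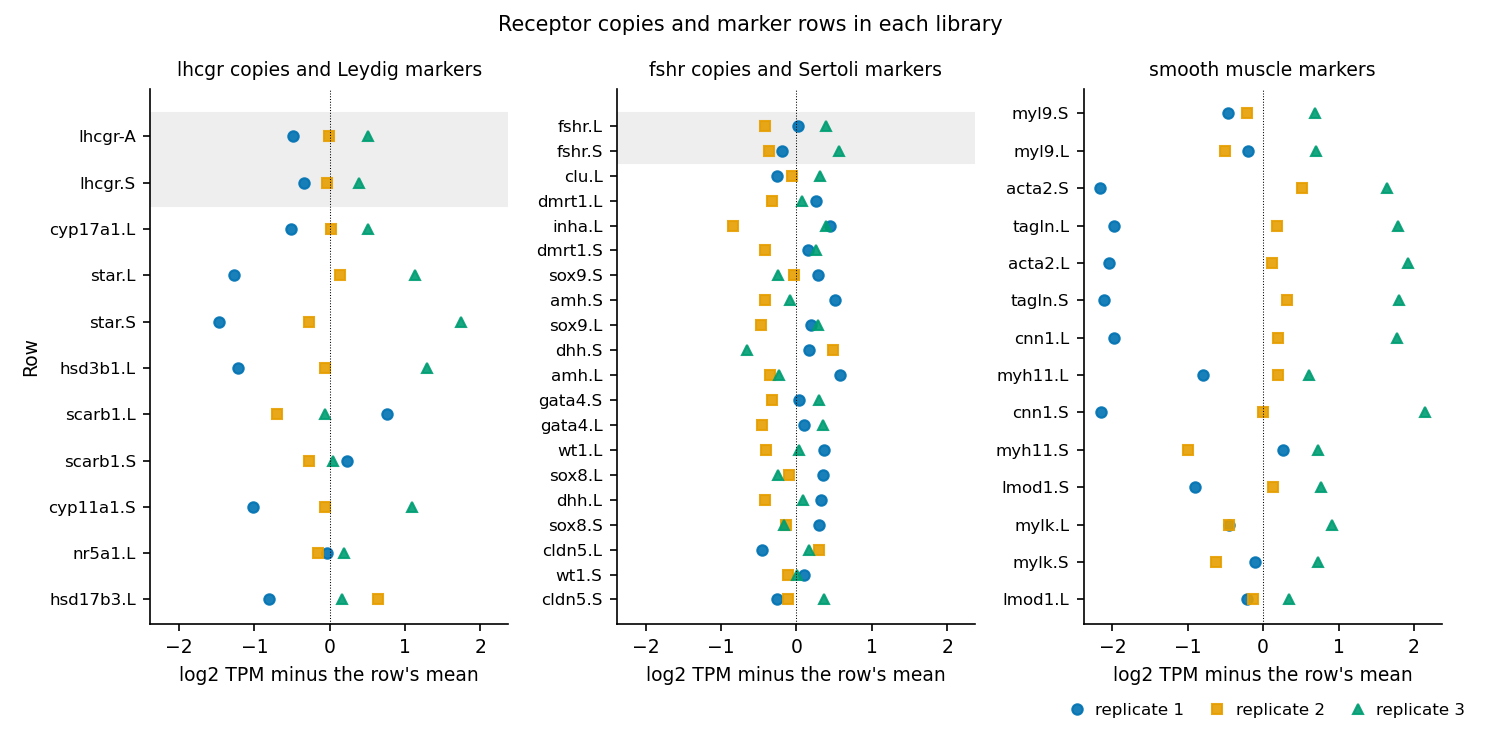
log2 TPM minus the row's own mean in the replicate 1, 2 and 3 libraries, for the lhcgr copies with 9 Leydig marker rows, the fshr copies with 18 detected Sertoli marker rows, and 14 smooth muscle marker rows. Both lhcgr copies have replicate 1 lowest and replicate 3 highest, both fshr copies have replicate 2 lowest and replicate 3 highest, and every smooth muscle row is highest in replicate 3.

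Compared with receptors of other hormones, fshr had the highest mean of the 23 receptor genes reported here and lhcgr ranked 15. With copies summed, fshr at 31.7 ± 9.82 TPM (SD, n = 3) stood above nr3c1, the glucocorticoid receptor, at 21.1 ± 2.09 TPM in 3 of 3 libraries. In replicate 2 both were close, with 23.5 TPM for fshr and 22.8 TPM for nr3c1. Also among the higher receptor genes were ghr, the growth hormone receptor, at 15.2 ± 3.03 TPM and igf1r, an insulin-like growth factor receptor, at 10.3 ± 1.08 TPM. The lhcgr sum lay between lgr4 at 4.47 ± 1.42 TPM and acvr2b, an activin receptor, at 2.75 ± 0.196 TPM, and its range overlapped both. The androgen receptor row ar.L, at 2.40 ± 0.760 TPM, also overlapped with lhcgr. The rank and overlaps of lhcgr rest on lhcgr-A. A sum holds 1 row for pgr, mc2r, ar, esr2 and gnrhr and 2 rows for the other genes. Only lhcgr was given a row without the L or S ending. Alone, lhcgr.S had a mean of 0.796 TPM, below the rxfp1 sum of 0.898 TPM. Of the closest relatives in the leucine-rich repeat receptor family, lgr5.L, an R-spondin receptor, had 7.21 ± 1.46 TPM and the relaxin receptor row rxfp1.L 0.357 ± 0.0866 TPM (SD, n = 3). The other R-spondin receptor rows were lgr4.S at 2.40 ± 0.726 TPM, lgr4.L at 2.07 ± 0.926 TPM and lgr5.S at 1.58 ± 0.589 TPM (SD, n = 3). Among relaxin family receptors, rxfp2.S had 0.739, 0.0210 and 3.35 TPM in the replicate 1, 2 and 3 libraries, while rxfp1.S averaged 0.540 ± 0.341 TPM and rxfp2.L 0.127 ± 0.0848 TPM (SD, n = 3). No symbol in the table matched tshr, the thyrotropin receptor, or lgr6, so neither was analysed here.

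**Figure D4:**
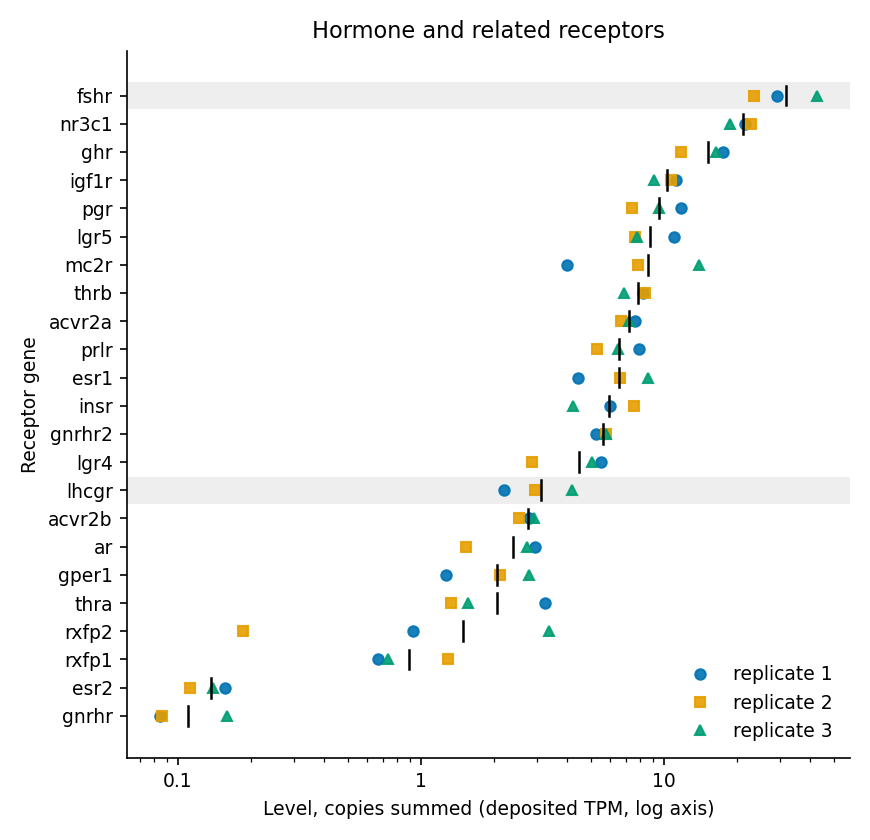
Level in deposited TPM, copies summed, on a log axis for 23 receptor genes in order of their mean, with shaded rows for fshr and lhcgr. Points are the replicate 1, 2 and 3 libraries and vertical ticks their means. The fshr mean of 31.7 TPM is at the top and lhcgr at 3.12 TPM, with lhcgr-A included, is in rank 15.

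RNA of the gonadotropin subunits fshb, lhb and cga was near the limit of detection, while that of gnrh1.L was not. Of 11 rows of the glycoprotein hormone and releasing hormone list, 2 were detected, against 66.7% of all rows, and 4 without replicate 1. The FSH beta subunit row fshb.L had 40, 27 and 5 counts in the replicate 1, 2 and 3 libraries, or 0.913 ± 0.654 TPM, and fshb.S had 4, 7 and 3 counts. For the LH beta subunit, lhb.L had 24, 40 and 48 counts, or 1.11 ± 0.423 TPM. The shared alpha subunit rows cga.L and cga.S had 0.941 ± 0.198 and 0.378 ± 0.181 TPM (SD, n = 3). Detected were gnrh1.L, for gonadotropin-releasing hormone, at 27.3 ± 8.01 TPM, and tshb.S, for the thyrotropin beta subunit, at 2.42 ± 1.04 TPM (SD, n = 3). Below the detection rule, tshb.L had 21, 61 and 199 counts in the replicate 1, 2 and 3 libraries, or 3.64 ± 3.82 TPM (SD, n = 3). The other rows, gphb5.L, gnrh2.L and gpha2.L, were between 0.0805 and 1.01 TPM by mean. None of 7 pituitary gonadotrope marker rows was detected in all 3 libraries, and they summed to 4.37, 4.18 and 3.16 TPM. Apart from pitx1.L and gnrhr.L, these are the fshb, lhb and cga rows given above.

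Most rows for the signalling steps that follow the receptors were detected, as were 66.7% of all rows. Their levels spread to both sides of lhcgr-A. Above the mean of lhcgr-A lay 15 of 22 rows for G proteins and cyclases, 25 of 27 for protein kinase A and its targets, 8 of 17 for phosphodiesterases and 16 of 20 for receptor shut-off. That mean itself lay at percentile 45.7 of all rows and 19.5 of detected rows, so a row above it is common in the whole table. Of 22 rows for G proteins and adenylyl cyclases 20 were detected, led by the stimulatory G protein row gnas.L at 44.6 ± 7.64 TPM, and adcy4.L was the most abundant cyclase row at 23.6 ± 4.67 TPM (SD, n = 3). All 27 rows for protein kinase A, Epac and cyclic AMP-responsive transcription factors were detected, with prkar1a.S, a regulatory subunit, at 75.8 ± 10.8 TPM. All 17 phosphodiesterase rows were detected, with a median of 1.51 TPM, between lhcgr.S and lhcgr-A. For receptor shut-off, 19 of 20 rows were detected. The highest, rgs2.L, for a regulator of G protein signalling, had 69.9, 19.4 and 12.7 TPM in the replicate 1, 2 and 3 libraries, the reverse of the lhcgr order. That reverse order was found in 3 of the 19 detected rows of this list and in 19.3% of all detected rows. The lhcgr order itself was found in 2 of the 19 rows and in 8.21% of all detected rows. A further row of the list, mvk.L, is mevalonate kinase, which in rat also binds the LH receptor mRNA, and had 16.2 ± 4.30 TPM (SD, n = 3).

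Of the genes that respond to LH in mammals, 31 of 31 rows were detected, with a median of 27.3 TPM, and cyp17a1.L led at 534 ± 186 TPM (SD, n = 3). Of the genes that respond to FSH, 25 of 34 rows (73.5%) were detected, close to the 66.7% of all rows, with a median of 3.51 TPM. The lactate dehydrogenase row ldha.S had 162 ± 2.81 TPM and the inhibin beta row inhbb.S 31.4 ± 7.85 TPM (SD, n = 3). Immediate early gene fos.S had 82.9, 8.58 and 4.67 TPM in replicates 1, 2 and 3, an order that neither receptor gene shared. Of the transcription factors known to act on the receptor promoters in mammals, 34 of 41 rows were detected, among them usf1.S at 45.3 ± 4.06 TPM and sp3.S at 38.5 ± 1.46 TPM (SD, n = 3). Several lists share genes, and these shares of detected rows are read against the 66.7% of all rows, which include many loci without a name.

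**Figure D5:**
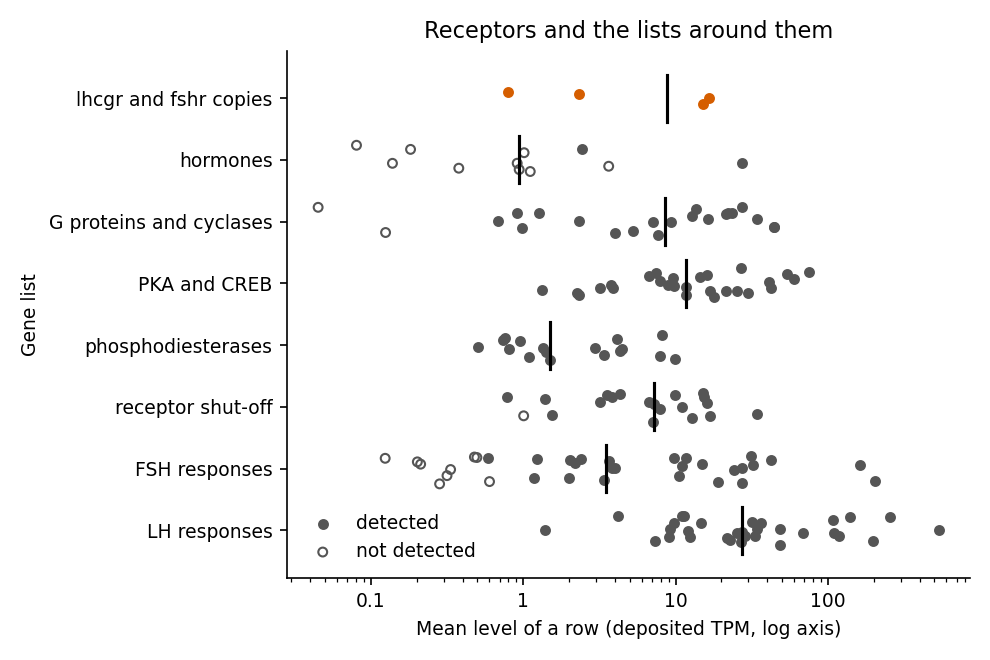
Mean level of each row in deposited TPM on a log axis, for the lhcgr and fshr copies and the rows of 7 gene lists, with filled points for rows detected in all 3 libraries, open points for others and ticks at list medians. Hormone rows are mostly open, and the lhcgr copies lie below the medians of the cyclase, protein kinase A, receptor shut-off, FSH response and LH response lists.

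Rows with the most similar profile were sought by the root mean square difference of centred log2(CPM + 0.5) over the 3 libraries. For lhcgr-A, the nearest named rows were col10a1.S, plscr4.S and shc4.S (0.0049 to 0.0085), and 173 detected rows lay within 0.1. Among listed genes, slc2a1.L (0.059), cyp17a1.L (0.065) and esr1.S (0.070) came closest to lhcgr-A. For lhcgr.S the nearest were myom1.S, spry4.L and b4galnt4.S, with 524 rows within 0.1, and acvr2b.L, ptprc.L and clu.L among listed genes. The row fshr.L was nearest to nbl1.L, tagln2.S and golim4.L, with 502 rows within 0.1, and to pde1a.S, nr5a2.S and gata4.L among listed genes. The row fshr.S was nearest to prph.L, dennd1c.L and prss16.L, with 204 rows within 0.1, and to lcp1.L, cdh5.L and rapgef3.L among listed genes. The copies lay 0.151 from each other for lhcgr and 0.163 for fshr, whereas lhcgr-A was 0.344 from fshr.L and 0.240 from fshr.S. For lhcgr.S these distances were 0.256 and 0.231. Adding 0.5 CPM narrows the profile of lhcgr.S, at 1.14 to 2.14 CPM, more than those of the other receptor rows. Its distances and its number of near rows depend on that. Of detected rows, 1.94% lay closer to lhcgr-A than lhcgr.S did, and 5.98% lay closer to lhcgr.S than lhcgr-A did. The matching shares were 6.30% around fshr.L and 2.67% around fshr.S. With 3 libraries, 173 to 524 rows come within 0.1, so the names of the nearest rows describe the libraries and no more.

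In the NCBI gene order fshr and lhcgr are neighbours in both subgenomes, and their surroundings differ in level. Next to lhcgr-A, on its other side, lies gtf2a1l.L, for a germ cell form of a general transcription factor, which had 79.4, 77.1 and 69.9 TPM in the replicate 1, 2 and 3 libraries, an order unlike that of lhcgr-A. The neighbour of lhcgr.S on its other side, ston1.S, for an endocytosis adaptor, had 2.07, 1.07 and 1.68 TPM. On the other side of fshr.L lies LOC108716082, which had 0.411, 0.140 and 0.140 TPM. On the other side of fshr.S lies LOC121394352, which was not detected and had a mean of 0.0119 TPM. Within 3 genes of fshr.L stood erlec1.L, with 15.5, 14.6 and 16.1 TPM. Within 3 genes of lhcgr-A stood ppp1r21.L, with 15.1, 18.3 and 14.6 TPM, and within 3 genes of fshr.S stood asb3.S, with 21.3, 18.9 and 17.1 TPM. Strand was not stated for the counting, so reads from overlapping transcripts cannot be told apart.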

How the data were processed

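Whole-testis polyadenylated RNA of 3 libraries was sequenced after a TruSeq mRNA preparation, per the labels' protocols. The deposited table holds whole-number counts per gene and library and the authors' TPM, per the file headers, which equal counts per deposited gene length, scaled to 1000000, within 0.11% for the receptor rows. Of the deposited lengths, 90.9% are multiples of 3, so they were taken as coding lengths. HISAT2 and featureCounts are named in the submitters' processing notes, without versions, and the sources used here do not give strand or multi-mapping settings. The build is not spelled out, so NCBI's table (34693 of 34694 rows matched) served only for names and neighbours.

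Members, gene lists and tests were chosen with earlier results of these data known. The 204 listed genes included 181 with a row, and the other 23 were not analysed here. A further receptor gene of the lists is not reported here. CPM used edgeR 4.0.16 TMM factors of 1.07, 0.956 and 0.979, so that 3 counts amount to 0.0398, 0.0459 and 0.0501 CPM. Homeolog pairs whose summed CPM reached 1 in every library were fitted with glmQLFit and glmQLFTest on all genes' pairs, with library blocks, offsets for effective library size and coding length, and Benjamini-Hochberg adjustment (threshold 0.05). The same library supplies both copies, so each library is a pair. The lhcgr-A pair was added after the data were seen. The SE is the log2 ratio divided by the square root of F. The fit was tested on simulated counts. Alternatives included DESeq2 1.42.0 and limma 3.58.1. Named rows were drawn from all receptor rows, up to 5 detected rows of highest mean TPM per list, all hormone and related receptor rows, the 3 nearest profiles (overall and among listed genes) and 3 neighbours on each side.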

Additional observations from a re-analysis of the deposited data

How the results depend on the processing

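Over the tools, scalings, filters and left-out libraries tried, lhcgr-A stayed above lhcgr.S, with log2 ratios from 1.38 to 1.59 and adjusted p from 4.12e-05 (DESeq2) to 0.0447 (edgeR without replicate 3). The fshr ratio stayed between 0.0074 and 0.23 and passed the threshold in none of these fits, with adjusted p from 0.442 to 0.968. Pairs called numbered 1848 to 2436 with L higher and 1351 to 2005 with S higher, the last with the L and S columns scaled separately. With no replicate block, the ratio was 1.55 for lhcgr (adjusted p = 0.0144, edgeR) and 0.11 for fshr (adjusted p = 0.778, edgeR), and 2114 pairs had L and 1642 had S higher, so dropping the block changed no call of either gene. The log2 ratio of lhcgr to fshr ranged from -5.30 without lhcgr-A, an alternative added after the data were seen, to -2.98 with a pseudocount of 1 TPM. Leaving out 1 library at a time gave spans between libraries from 1.39 to 2.0 for lhcgr-A, from 1.24 to 1.67 for lhcgr.S, from 1.29 to 1.74 for fshr.L and from 1.12 to 1.89 for fshr.S; fewer libraries cannot widen a span. All 4 receptor rows stayed detected at a CPM of 0.1, 0.5 or 1 and without any 1 library. Among lists, detected hormone rows numbered 6 at a CPM of 0.1 and 1 at a CPM of 1, erythrocyte rows 7 at 0.1 against 4, gonadotrope rows 2 at 0.1 and 1 without replicate 1, and ovary rows 6 at 0.1 against 2. Depth limits lhcgr.S most, with 86 to 128 counts per library.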
